A study of Mus musculus with 15 samples.

Results

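Of 15 mouse kidney libraries, the 6 from obstructed kidneys of mice on normal diet (UUO) were split by their level of Col1a1, the gene of the alpha 1 chain of type I collagen. The high and low libraries were chosen by this measured value alone. Col1a1 stood at 1595, 1637 and 1652 CPM (counts-per-million of the scaled library size) in UUO replicates 1, 2 and 3, which form the low set. It stood at 2980, 2924 and 2470 CPM in UUO replicates 4, 5 and 6, which form the high set. The least of the high set was thus at 2470 CPM and the greatest of the low set at 1652 CPM, and these values chose the sets, so nothing is tested between them and every difference between them is given as a description. For reference, sham kidneys held 32.0 to 70.1 CPM and the obstructed kidneys on the other diet 1173 to 1799 CPM. The same 3 and 3 libraries were obtained when Col3a1 or Fn1 was used in place of Col1a1.

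All animals were labelled WT and all kidneys were taken at day 14. The other libraries used here were sham-operated kidneys on normal diet (sham, n = 3) and obstructed kidneys of mice fed a Si-based agent (UUO_Si, n = 6), and the series was made to ask what that agent does to kidney transcripts. In ureteral obstruction the urine outflow of a kidney is blocked by surgery. Sex, age, strain and any pooling of animals are not given in the labels or protocols. The sample codes differed within the high set: UUO replicates 1 to 4 carry codes RM302 to RM305, while UUO replicates 5 and 6 carry RM604 and RM605. In UUO_Si, replicates 1 to 5 carry codes of the RM4 series and replicate 6 carries RM706. What a code series marks is not given in the sources used here, so the code series and the matrix level of UUO replicates 5 and 6 cannot be told apart, and UUO replicate 4 is the only high library of the same code series as the low set. The gene lists below are therefore also described for replicate 4 alone and for replicates 5 and 6.

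After obstruction, fibroblasts and pericytes of the interstitium turn into contractile, matrix-making cells that secrete fibrillar collagens, fibronectin and other matrix proteins. A whole-kidney piece can also hold renal pelvis with urothelium and smooth muscle, vessel wall, blood and fat of the hilum and capsule. In such bulk RNA, more cells of a type and more RNA per cell of that type cannot be told apart.

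Total counts were 11.2 M to 15.4 M (M for mega) per UUO library, and 16752 of 24421 genes passed the filter on low counts. Kidney identity genes were present in all 6 UUO libraries: Lrp2 of the proximal tubule at 384 to 740 CPM, Umod of the thick ascending limb at 809 to 1072 CPM and Nphs1 of the podocyte at 21.2 to 53.9 CPM. UUO replicates 5 and 6 had counts in 791 and 1264 of 1463 olfactory and vomeronasal receptor genes, against at most 139 in each of replicates 1 to 4. UUO_Si replicate 6 (985) and sham replicate 3 (1232) had such counts too, while the other sham and UUO_Si libraries had 84 to 128. The part of these counts in the results was not tested. Xist was at 1097 CPM or more in each library, and 4 Y-linked genes had at most 2 counts in any library.

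Between the high and low sets 3360 genes (20.1% of those tested) were higher and 3388 (20.2%) lower without overlap of the 3 and 3 libraries. In simulated counts with only 200 genes changed, 1837 of 16752 did not overlap, so a part of such genes arises without any change. With a difference of at least 1.5-fold as well, 810 genes (4.84%) were higher and 1274 (7.61%) lower. All differences below are of mean log2 CPM, high minus low, unless stated otherwise, and the median over all genes was 0.01. These shares are the background against which the counts in gene lists are read. The lists hold 724 members, of which 676 passed the filter, and counts below are over those.

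Genes of the interstitial matrix were higher in all 3 high libraries. Of 39 expressed interstitial matrix genes other than fibrillar collagens, 32 were higher without overlap and 0 were lower, with a median difference of 0.72 (1.64-fold). The median was 0.72 in replicate 4, 0.80 in replicate 5 and 0.81 in replicate 6, so the 3 high libraries, each set against the same low set, were alike. The summed level of the list was 15520 to 17510 CPM in the high set and 10200 to 11810 CPM in the low set, and the UUO_Si libraries (9863 to 12450 CPM) lay close to the low set. Since Col1a1 chose the libraries and matrix genes tend to move together, this list is not independent of the choice.

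Cilp, a cartilage and heart matrix protein, was at 10.8, 4.24 and 4.91 CPM in replicates 1 to 3 and at 27.7, 55.7 and 65.1 CPM in replicates 4 to 6. Fmod, a collagen-binding proteoglycan, was at 17.6, 8.93 and 14.1 CPM against 49.7, 65.6 and 44.9 CPM. Lum, its relative, was at 23.2, 10.3 and 14.2 CPM against 42.9, 62.3 and 71.2 CPM. These 3 genes had the largest differences of the list (2.89, 2.0 and 1.92), and in each of them every high library lay above every low one. Postn, a matricellular protein of fibrotic tissue, was at 50.2, 36.3 and 52.8 CPM in the low set and at 125, 172 and 126 CPM in the high set, a difference of 1.60 (3.04-fold). Fn1 (fibronectin) differed less, by 0.64, from 1670, 1674 and 1942 CPM to 2954, 2989 and 2340 CPM. Tenascin C (Tnc) overlapped between the sets, with 456 CPM in replicate 6 and 486 to 550 CPM in the low set. The secreted Wnt antagonist Sfrp4 stood at 15.3, 8.32 and 16.1 CPM against 23.0, 32.3 and 35.2 CPM, without overlap.

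**Figure D1:**
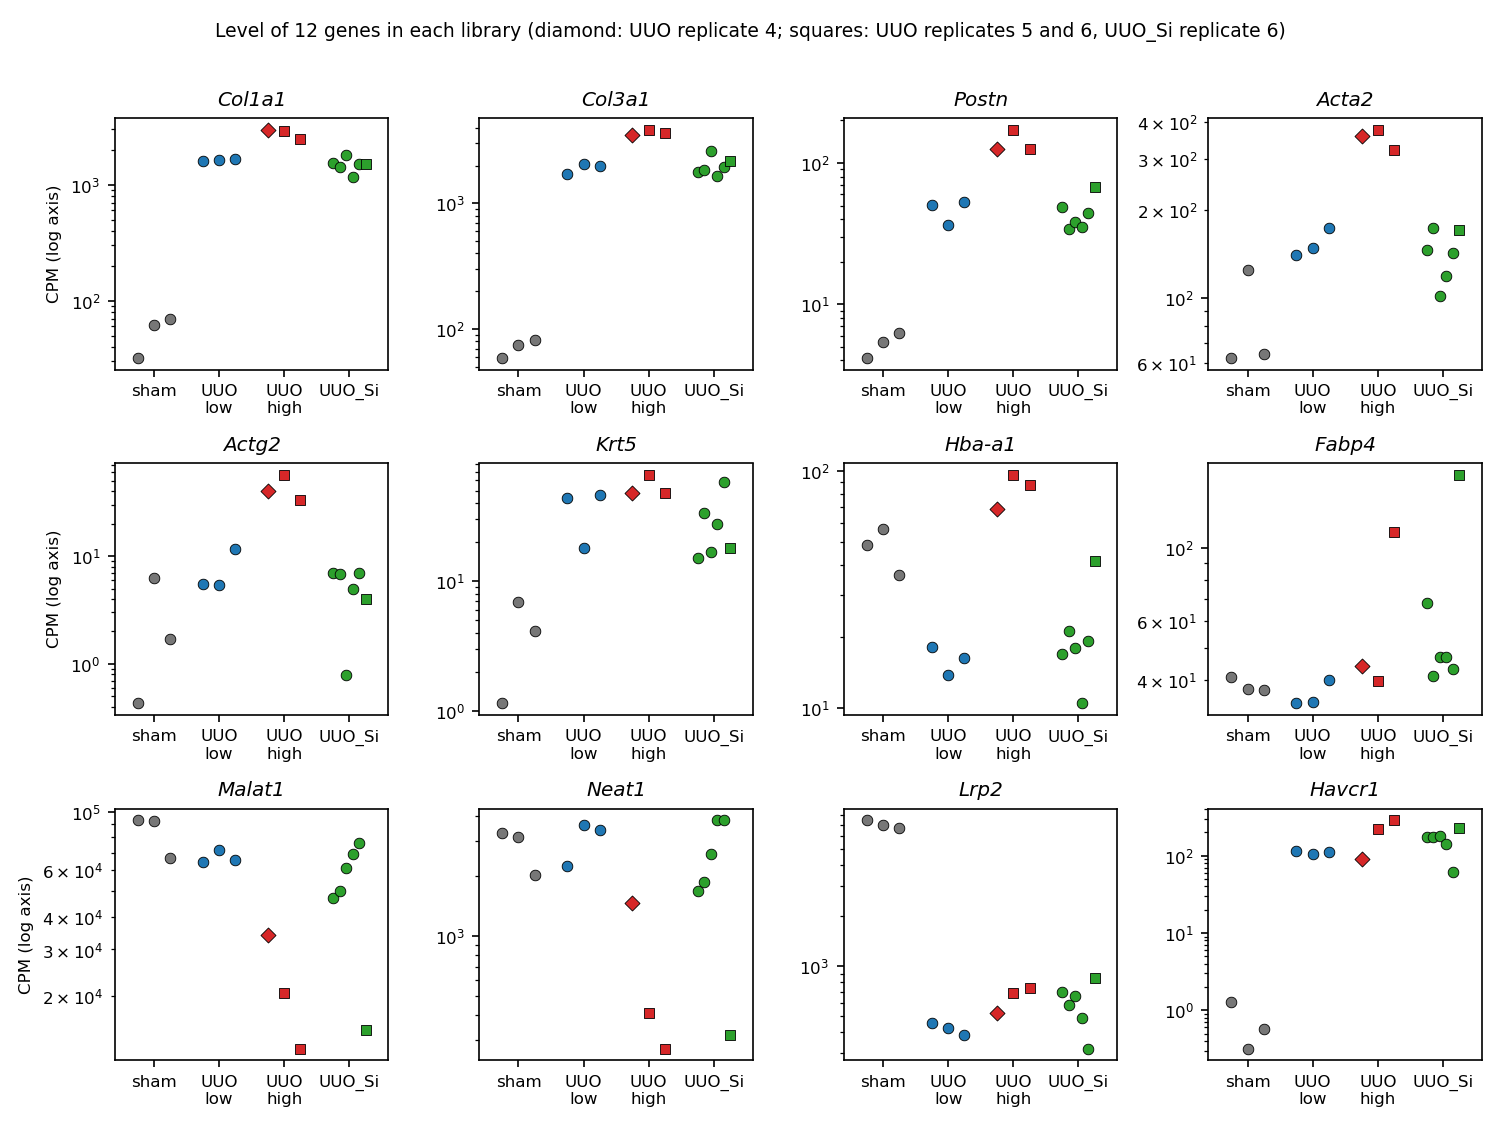
Level of 12 genes in CPM on a log axis in every library, grouped as sham, UUO low set, UUO high set and UUO_Si, with a diamond for UUO replicate 4 and squares for UUO replicates 5 and 6 and UUO_Si replicate 6. Col3a1, Postn, Acta2, Actg2 and Hba-a1 are high in all 3 high libraries, whereas Malat1 and Neat1 are lowest in the squares, and Havcr1 of replicate 4 (91.1 CPM) lies below the low set.

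Besides Col1a1, 6 of the 9 other expressed fibrillar collagen genes were higher without overlap and 1 was lower. Col3a1, which forms fibrils with type I collagen, was at 1706, 2048 and 1968 CPM in the low set and at 3530, 3857 and 3618 CPM in the high set, a difference of 0.95 (1.93-fold). Col1a2, the partner chain of Col1a1, was at 1369, 1407 and 1319 CPM against 2409, 2435 and 2072 CPM. The chains of types V and XI that nucleate fibrils were also higher, with differences of 0.51 for Col5a1, 0.57 for Col5a2, 0.66 for Col5a3 and 1.32 for Col11a1. Col27a1 went the other way, from 48.3, 72.2 and 52.4 CPM to 42.1, 38.2 and 30.03 CPM, and Col11a2 and Col24a1 overlapped.

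Collagen folding and crosslinking genes differed less, 15 of 22 higher without overlap and 1 lower, with a median of 0.35. Adamts2, which trims procollagen, was at 105, 132 and 134 CPM against 225, 234 and 224 CPM. Crtap (0.79), Fkbp10 (0.68), Loxl2 (0.65) and Loxl1 (0.65) followed. The crosslinking enzyme Lox overlapped, with 129, 156 and 178 CPM against 200, 165 and 177 CPM, and the prolyl hydroxylase P4ha2 was lower by 0.26 on the log2 scale, from 36.1 to 36.7 CPM down to 28.3 to 32.1 CPM. Of 26 matrix proteases and inhibitors 12 were higher and 0 lower, among them Timp2, at 254, 232 and 291 CPM against 398, 446 and 391 CPM, and Adam12 (0.89).

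Basement membrane genes did not share the pattern of the interstitial matrix: 6 of 20 were higher, 4 were lower and the median was -0.02. Lama4 (0.51) and Nid1 (0.43), which interstitial and vascular cells make, were higher without overlap. Lama5, the laminin chain of tubular and glomerular basement membranes, was lower, at 432, 548 and 498 CPM against 416, 347 and 232 CPM. The median of this list was 0.25 in replicate 4 and -0.36 in replicate 6, so the high libraries differed among themselves.

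Genes of fibroblasts and pericytes were higher for 9 of 21 members and lower for 0, with a median of 0.38. Pi16, a marker of adventitial fibroblasts, was at 14.8, 9.01 and 18.6 CPM against 38.5, 71.8 and 58.0 CPM. Dpt and Dcn, of the same cells, differed by 0.98 and 0.91, and Clec3b, listed with mesothelium and adventitia, by 2.05. The receptors Pdgfrb (246, 290 and 324 CPM against 398, 336 and 309 CPM) and Pdgfra (376 to 433 CPM against 358 to 505 CPM) overlapped, as did the pericyte gene Cspg4. Among 30 genes of TGF-beta and Wnt signalling 10 were higher and 0 lower, among them Tgfb3 at 29.5, 23.5 and 24.2 CPM against 47.8, 54.1 and 39.1 CPM, and Inhba (0.84), an activin subunit.

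Contractile genes of smooth muscle divided. Actg2, the gamma actin of visceral smooth muscle, was at 5.46, 5.39 and 11.7 CPM in the low set and at 39.9, 56.8 and 33.3 CPM in the high set, a difference of 2.56 (5.89-fold). Acta2, the actin of vascular smooth muscle and of myofibroblasts, was at 140, 148 and 174 CPM against 360, 377 and 322 CPM (2.30-fold). Cnn1 (calponin) was at 8.76, 4.39 and 11 CPM against 27.9, 31.8 and 19.6 CPM. All 3 genes were apart in every library. In all, 11 of 24 expressed smooth muscle genes were higher without overlap, Tagln (0.78), Myl9 (0.94), Kcnmb1 (0.83) and Des (0.71) among them, and Pln was lower. Myh11, the myosin heavy chain of differentiated smooth muscle, overlapped, at 233, 164 and 237 CPM against 442, 328 and 196 CPM, and Myocd, the cofactor that drives these genes, overlapped as well at 4.93 to 7.45 CPM against 5.71 to 8.48 CPM. The summed level of the list was 2899 to 3624 CPM in the high set and 2455 to 2707 CPM in the low set, and the list median was 0.56 in replicate 4, 0.47 in replicate 5 and 0.34 in replicate 6.

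Many contractile genes are switched on through the CArG box, a site of serum response factor made of CC and GG with 6 bases of A or T between them. In the 250 bases before the annotated start this box stood in 2 of 19 smooth muscle genes with a RefSeq promoter (10.5%), against 1.43% of tested genes and 1.62% of all promoters, and in 0 of 23 genes of the interstitial matrix list. Of the genes higher without overlap 1.76% held it, of those lower 1.02%. A match is read on both strands, since the box is its own reverse complement in form. Myl9, a myosin light chain and the only one of the 2 genes that was higher without overlap, holds its box 161 bases before the start. The stretch is shown with the box in capitals (RefSeq, GRCm38.p6, plus strand, chr2:156775263-156775352).
Myl9: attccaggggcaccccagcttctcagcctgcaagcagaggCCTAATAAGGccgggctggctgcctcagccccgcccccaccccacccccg

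Urothelial and skeletal muscle genes were listed as marks of tissue next to the kidney parenchyma, but the summed lists were also present in sham kidneys. Urothelial genes mostly overlapped between the sets, and skeletal muscle genes went both ways. Only Krt5 of 19 expressed urothelial genes was without overlap, at 43.7, 18.0 and 46.4 CPM against 48.3, 66.2 and 47.7 CPM, and replicate 2 was lowest of the 6 UUO libraries in 18 of them. The uroplakins varied within both sets: Upk3a was at 10.4, 1.0 and 7.79 CPM in the low set and at 9.24, 15.3 and 4.72 CPM in the high set, and Upk1b at 27.7, 7.55 and 22.6 CPM against 26.3, 41.0 and 16.8 CPM. The summed level of the urothelial list was 678 to 997 CPM in the low set and 897 to 1090 CPM in the high set. Sham kidneys held 770 to 893 CPM, although the uroplakin Upk2 had 0 to 9 counts there and 29 to 241 in UUO. The sum is therefore not a measure of urothelium alone. The fast myosin Myh4 had 0 counts in replicates 1 to 4, 9 in replicate 5 and 42 in replicate 6, and creatine kinase Ckm had 0 to 2 in all 6. Myh4 also had 52 counts in sham replicate 3 and 22 in UUO_Si replicate 6, against 0 to 4 in the other sham and UUO_Si libraries. These 2 libraries and UUO replicates 5 and 6 are those with many receptor genes detected. The 11 expressed skeletal muscle genes had a median of 0.59, with 0 in replicate 4, 0.48 in replicate 5 and 1.15 in replicate 6, and 1 of them (Mb) was higher without overlap. A member with 0 counts in each low library, such as Myh4, could only raise this median, so it is one-sided in part. Ttn, Neb, Atp2a1 and Tnni2 were lower without overlap, Ttn at 72.2, 84.0 and 75.6 CPM against 50.7, 29.6 and 58.7 CPM. Summed, the skeletal muscle list was lower in every high library, at 49.1 to 98.7 CPM against 104.8 to 114.3 CPM in the low set. Ttn made up most of this sum in each of the 6 libraries. Sham kidneys held 217.8 to 274.3 CPM, so the sum is not a measure of skeletal muscle tissue.

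Haemoglobin transcripts were higher in every high library. Hba-a1 (alpha globin) was at 18.0, 13.7 and 16.3 CPM in the low set and at 69.1, 95.9 and 87.0 CPM in the high set, a difference of 2.38 (5.19-fold). Hbb-bs (beta globin) was at 10.8, 8.78 and 8.47 CPM against 31.6, 42.9 and 45.7 CPM. The table gives Hba-a2 the same values as Hba-a1, so these copies could not be told apart and are counted once. Globins together made up 58.5 to 73.1 ppm of counts in the low set and 241 to 337 in the high set, while sham libraries had 142 to 171. Of 9 expressed erythroid genes 7 were higher and 0 lower. Alas2, which makes haem in red cell precursors, differed by only 0.29 (14.1, 11.1 and 11 CPM against 14.4, 15.2 and 14.5 CPM).

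Several fat-specific transcripts were at or near 0 in the low set and differed widely among the 3 high libraries. Adipoq (adiponectin) had 3, 0 and 0 counts in the low set and 22, 92 and 226 in the high set. Cfd (adipsin) was at 0.562, 0.385 and 0.508 CPM against 6.52, 26.7 and 107 CPM, and Car3, the carbonic anhydrase of fat and muscle, at 1.53, 0.924 and 0.508 CPM against 8.04, 28.1 and 101.8 CPM. Cfd (5.32) and Car3 (4.71) were the 2 largest differences of the whole table among genes of at least 5 CPM with an established symbol. Both lay under 5 CPM in each low library, so they reached this level only through the high set. Of 14 expressed adipocyte genes 8 were higher without overlap and 0 lower. Adipoq, Plin1, Cidec and Retn had at most 3 counts in each low library and could therefore only be called higher, so this count is one-sided. In the same list, replicate 4 alone exceeded the range of replicates 1 to 3 by at least 1.5-fold in 8. Of all genes 4.14% did so, but the count in the list is one-sided in the same way. Fabp4, which capillaries make too, overlapped (34.0 to 40.1 CPM against 39.7 to 111 CPM). Summed, the list held 72.9 to 76.2 CPM in the low set, 99.4 CPM in replicate 4 and 458 CPM in replicate 6. Markers of mesothelium and adventitia summed to 711 to 762 CPM in the low set and 963 to 1125 CPM in the high set. The part of fat, adventitia, muscle wall or blood in the matrix difference was not tested.

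Among the other genes with the largest differences toward higher levels, Wisp2 was at 1.12, 2.54 and 1.78 CPM against 9.62, 10.8 and 12.1 CPM. The matricellular gene Thbs4 was at 5.54, 13.0 and 8.38 CPM against 24.7, 82.8 and 44.8 CPM. The imprinted RNA H19 was at 9.80, 1.54 and 1.86 CPM against 12, 28.8 and 15.7 CPM, and Dio2, which activates thyroid hormone, at 4.10, 18.5 and 10.8 CPM against 31.1, 48.0 and 61.4 CPM. In all 4 genes the lowest high library lay above the highest low one. Wisp2 lay under 5 CPM in each low library, so like Cfd and Car3 it reached the level for this ranking only through the high set.

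RNAs that stay in the nucleus were lower in the high set. Malat1, the most abundant long non-coding RNA of the table, was at 64250, 71930 and 65420 CPM in the low set and at 34040, 20510 and 12600 CPM in the high set. Its share of all counts was 6.56% to 7.38% in the low set, 3.49% in replicate 4 and 1.37% in replicate 6. Neat1, the scaffold of paraspeckles, was at 2247, 3607 and 3402 CPM against 1463, 411 and 271 CPM, a difference of -2.47, the lowest among genes of at least 5 CPM. In both, replicate 4 between the low set and replicates 5 and 6. Xist, which coats the inactive X chromosome, was at 2355, 2547 and 2153 CPM against 1496, 1357 and 1097 CPM. Kcnq1ot1, Airn and Firre, which also act where they are made, were lower by 1.12, 1.10 and 1.18 on the log2 scale. Of the 12 RNAs of this list, which holds Gas5 and Mir17hg as well, 9 were lower without overlap and 2 were higher. The higher ones were Meg3 at 8.28 to 8.55 CPM against 11 to 15.6 CPM, and Miat at 0 to 0.161 CPM against 0.570 to 1.49 CPM. At that low level Miat could only be called higher. Xist and its antisense partner Tsix are counted separately, although opposite strands could not be separated. The precursor of ribosomal RNA, Rn45s, was also lower, at 31940, 29670 and 26030 CPM against 20170, 23180 and 19070 CPM.

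The lower level was not limited to a few RNAs. Of 16752 genes 95.8% matched the GENCODE annotation, and among 310 antisense genes the median difference was -0.48 with 42.9% lower without overlap. Processed transcripts (180 genes, median -0.42) and lincRNAs (208 genes, median -0.30) were lower as well, against 0.03 in 14951 protein-coding genes. Among protein-coding genes the median went from 0.18 in the quintile of shortest summed exon length to -0.10 in the quintile of longest. The same order appeared over the number of exons, from 0.10 to -0.11. The direction was the same in replicate 4, where the shortest and longest quintiles had medians of 0.09 and -0.04, and in replicates 5 and 6, with 0.21 and -0.13. Reads of overlapping genes on opposite strands could not be separated, as the strand setting of the counting was not given. What set these differences was not tested.

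**Figure D2:**
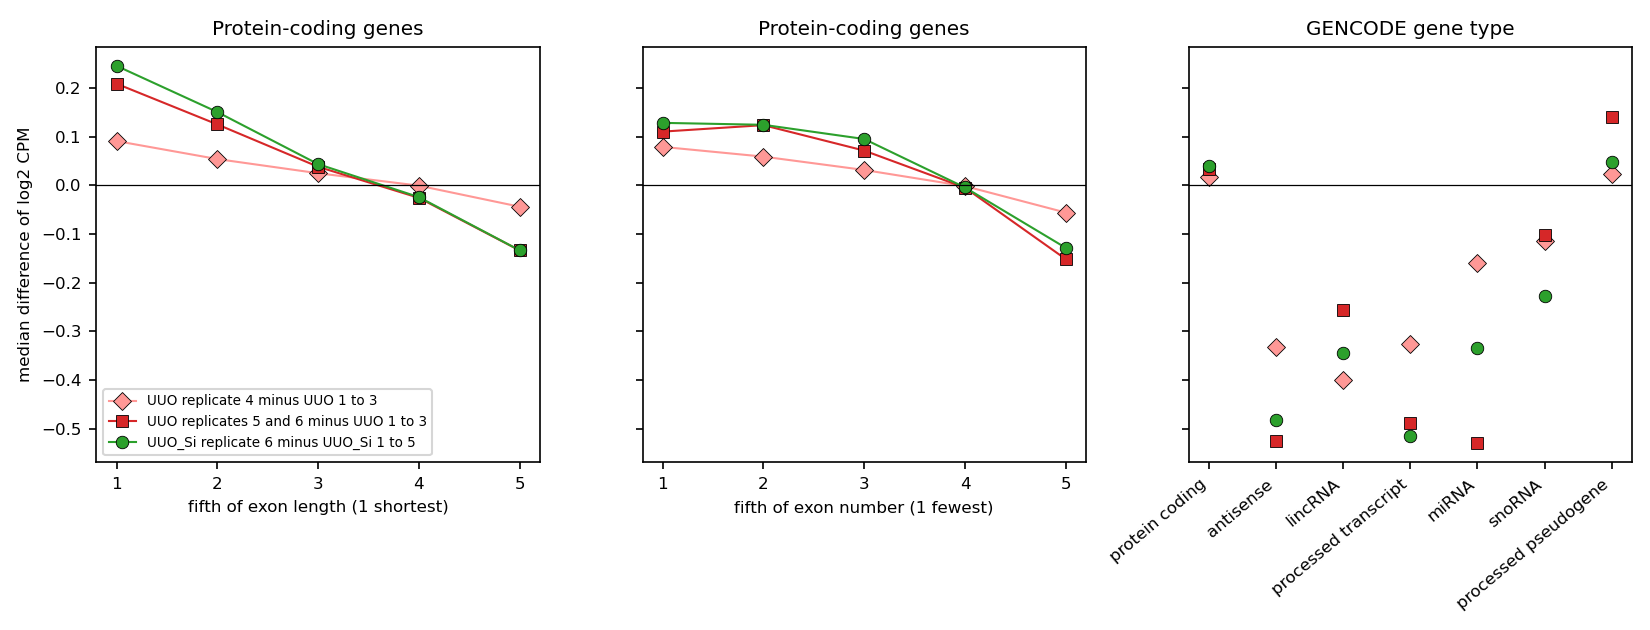
Median difference of log2 CPM over protein-coding genes by quintile of exon length and of exon number and over GENCODE gene types with at least 50 genes, for UUO replicate 4, for UUO replicates 5 and 6 and for UUO_Si replicate 6, each against the other libraries of its group as named in the key. Over exon length the lines descend from short to long genes in all 3, and antisense, lincRNA and processed transcript genes lie below 0 in all 3.

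Genes of the ribosome went the other way. Of 33 expressed genes of cytosolic ribosomal proteins 31 were higher without overlap and 0 lower, with a median of 0.62 (1.54-fold), and only Rps2 and Rps15 overlapped. Rps18 was at 109, 88.5 and 111 CPM against 192, 248 and 244 CPM, Rps27 at 25.6, 21.5 and 27.6 CPM against 51.8, 59.1 and 52.6 CPM, and Rps14 at 77.7, 74.5 and 77 CPM against 153, 167 and 146 CPM. Replicate 4 (median 0.50) carried most of the difference of replicates 5 (0.73) and 6 (0.67). Genes of oxidative phosphorylation were higher for 22 of 30 and lower for 1 (Ndufa4), with medians of 0.29, 0.49 and 0.56 in replicates 4, 5 and 6.

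Messages of ribosomal proteins start with a 5′ terminal oligopyrimidine tract, through which their translation is controlled together. With the tract read on the plus strand of the gene as a C and at least 4 further C or T, starting within 5 bases of the annotated start, 11 of 24 ribosomal protein genes with a RefSeq entry held it (45.8%), against 23.6% of tested genes and 21.2% of all. Among genes higher without overlap 24.3% held it and among genes lower 23.4%. The windows of Rps18 and Rps27, the ribosomal protein genes with the largest differences, are shown from 10 bases before the start to 20 bases after it with the tract in capitals (RefSeq, GRCm38.p6, both on the minus strand, chr17:33955646-33955675 and chr3:90213629-90213658).
Rps18: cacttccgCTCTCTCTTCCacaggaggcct
Rps27: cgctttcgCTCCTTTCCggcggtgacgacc

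Among the UUO libraries, proximal tubule genes separated replicates 5 and 6 from the other 4, not the high from the low set. Their median against the low set was -0.11 in replicate 4, 0.76 in replicate 5 and 1.08 in replicate 6. Slc34a1, the phosphate transporter of the brush border, was at 70.2, 59.0 and 57.5 CPM in the low set, at 54.2 CPM in replicate 4 and at 148 and 145 CPM in replicates 5 and 6. Miox, the kidney's inositol oxygenase, was at 7.20 to 7.47 CPM, then 5.76 CPM and then 36.2 and 42.4 CPM. Slc22a6, the organic anion carrier, was at 6.19, 4.93 and 8.72 CPM, then 4.49 CPM and then 24.1 and 25.1 CPM. Only 7 of 27 genes were higher without overlap, Lrp2 (megalin) among them at 452, 427 and 384 CPM against 520, 690 and 740 CPM. Sham libraries stood far above all of these, with a summed level of 29830 to 36400 CPM against 1797 to 1981 CPM in the low set, 1906 CPM in replicate 4 and 3468 CPM in replicate 6. Replicate 5, at 2887 CPM, lay within the 1394 to 3081 CPM of UUO_Si replicates 1 to 5.

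The injury gene Havcr1 (KIM-1) followed the same split: 116, 105 and 112 CPM in the low set, 91.1 CPM in replicate 4 and 223 and 288 CPM in replicates 5 and 6. Spp1 (osteopontin) did so as well, with 5152 to 6376 CPM in replicates 1 to 4 and 10520 and 10960 CPM in replicates 5 and 6. Lcn2, the injury marker of the distal nephron, was higher in all 3 high libraries, at 133, 187 and 184 CPM against 224, 327 and 403.1 CPM. So among the UUO libraries both proximal transport genes and the proximal injury gene were highest in the same 2. The tubular injury list as a whole did not share this split, with medians of 0.18, 0.29 and 0.21 in replicates 4, 5 and 6. Of its 24 genes 7 were higher and 1 lower without overlap, against 20.1% and 20.2% of all genes.

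Of 20 genes of the loop of Henle and distal convoluted tubule 5 were higher and 5 lower without overlap, close to the 20.1% and 20.2% of all genes. Slc12a3, the sodium chloride carrier of the distal convoluted tubule, was at 210, 219 and 172 CPM against 133, 143 and 113 CPM. Slc12a1, the carrier of the thick ascending limb, was at 442, 373 and 377 CPM against 318, 270 and 219 CPM. Umod of the same limb overlapped, and Calb1 (1.10), Cldn10 (0.67) and Kl (0.59) were higher without overlap. In the collecting duct the water channel Aqp2 was at 6.51, 6.47 and 7.28 CPM against 10.9, 11 and 10.3 CPM, while Fxyd4 was lower by 0.65 on the log2 scale. Podocyte genes had a median of -0.18. Nphs1 (nephrin) was at 48.6, 40.7 and 53.9 CPM against 41.5, 29.6 and 21.2 CPM, with replicate 4 inside the range of the low set, and Magi2 alone of 13 was lower without overlap.

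Of 18 endothelial genes 4 were higher and 0 lower without overlap, a share near the 20.1% of all genes for the higher ones, with Vwf at 20.2, 27.8 and 22.4 CPM against 39.4, 43.6 and 35.2 CPM and Cdh5 at 115, 134 and 144 CPM against 194, 176 and 184 CPM. Pecam1 and Plvap were the others, and the list median was 0.01.

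Leukocyte lists had medians of 0.17 for macrophages and monocytes, -0.02 for dendritic cells and MHC class II, -0.19 for T and natural killer cells, 0.02 for B and plasma cells and -0.13 for neutrophils. The neutrophil median ran from -0.60 in replicate 4 to 0.63 in replicate 6, and the T cell median from 0.20 in replicate 4 to -0.58 in replicate 5. Of 24 macrophage genes 8 were higher and 1 lower. Cd68 was at 23.6, 18.9 and 21.6 CPM against 34.2, 32.9 and 41.8 CPM and Adgre1 (F4/80) at 62.4, 53.8 and 49.0 CPM against 70.5, 70.5 and 91.8 CPM, whereas Mertk, the receptor for uptake of dead cells, was at 104, 131 and 107 CPM against 91.3, 58.0 and 63.6 CPM. Clec9a of cross-presenting dendritic cells was at 31.7, 30 and 25.8 CPM against 24.4, 9.57 and 11.1 CPM. In its list of 13, 2 genes were higher and 2 lower without overlap. Jchain of plasma cells was at 7.55, 13.4 and 10.8 CPM in the low set and 11.3 CPM in replicate 4, but at 1.58 and 1.32 CPM in replicates 5 and 6. The B and plasma cell list as a whole did not share this, with medians of 0.09 in replicate 5 and 0.13 in replicate 6. The T cell kinase Lck was split as Jchain was, at 9.24 to 11.7 CPM in replicates 1 to 4 and 4.38 and 5.96 CPM in replicates 5 and 6. Interferon-stimulated Oas2 was lower without overlap, at 22.5 to 27.4 CPM against 12.3 to 17.5 CPM. In its list of 27, 1 gene was higher (Psmb8) and 5 were lower (Mx1, Mx2, Stat2 and Usp18 beside it). That share of lower genes was near the 20.2% of all genes.

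Some immediate early genes were high in replicates 5 and 6. Fos was at 9.88, 9.39 and 14 CPM in the low set, 10 CPM in replicate 4 and 27.5 and 42.0 CPM in replicates 5 and 6, and Egr1 at 77.8 to 90.7 CPM in replicates 1 to 4 and 172 and 243 CPM in replicates 5 and 6. Over the list 4 of 21 genes were higher without overlap (Egr2, Atf3, Fosl2 and Klf2), a share near the 20.1% of all genes. Proliferation genes overlapped for the most part, with Mki67 at 188, 152 and 162 CPM against 162, 138 and 169 CPM and 3 of 28 cell cycle genes higher (Ccna2, Pcna and Rrm2).

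**Figure D3:**
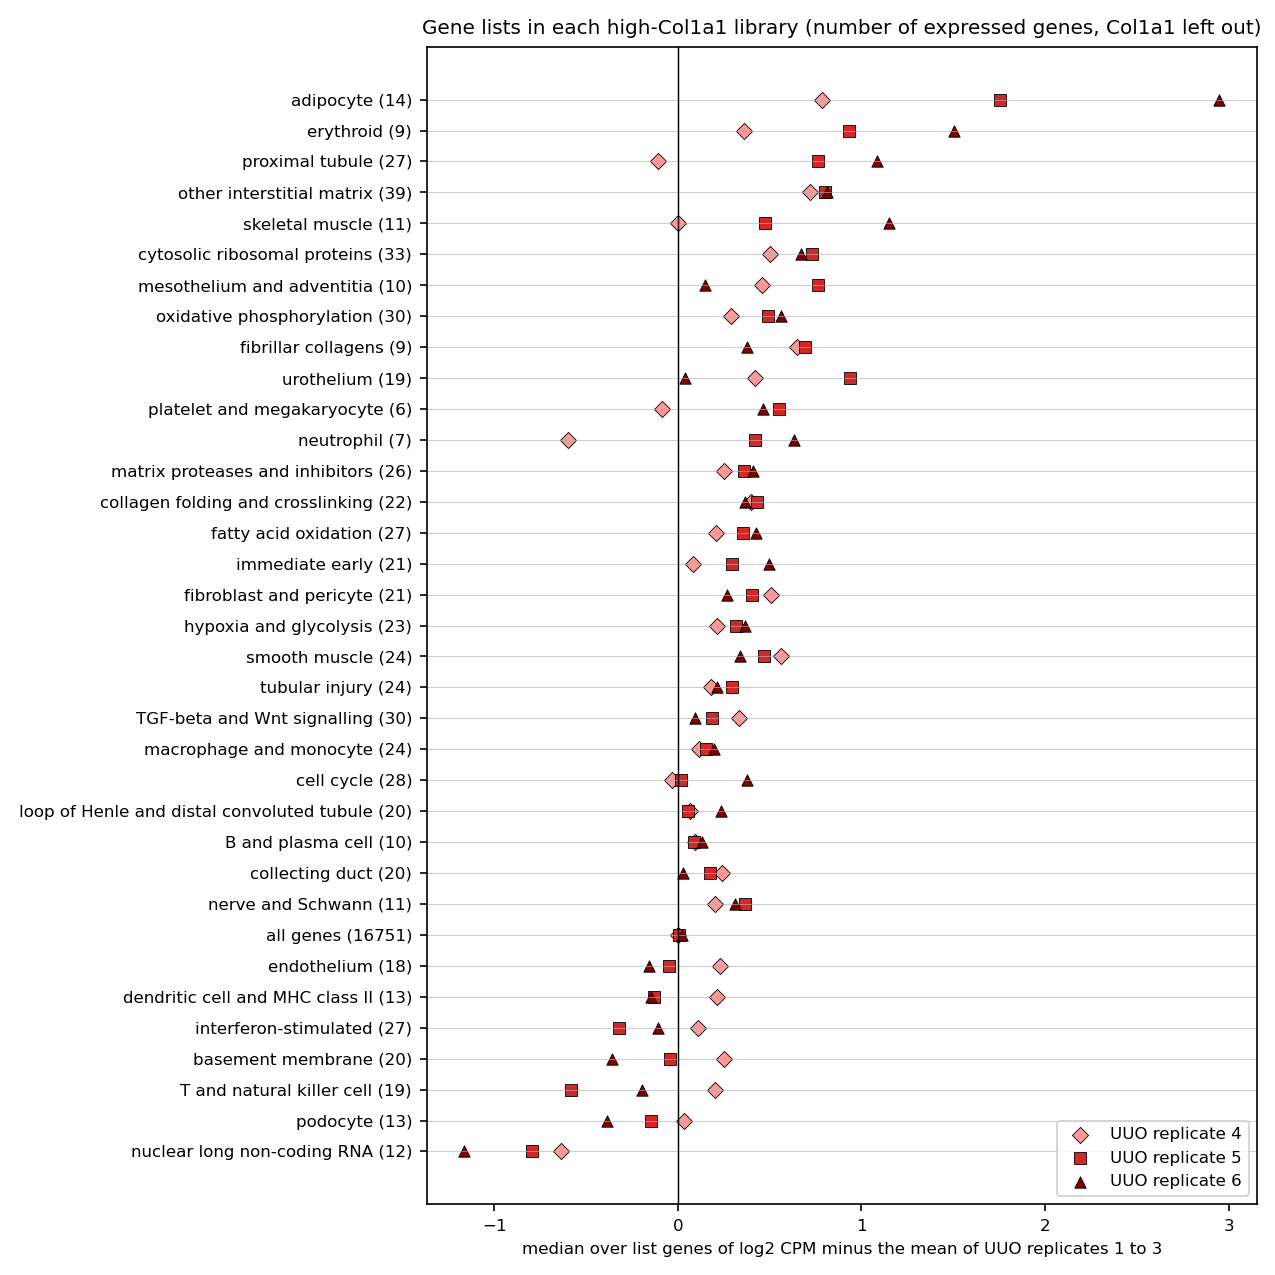
Median over the expressed genes of each list of log2 CPM minus the mean of UUO replicates 1 to 3, for UUO replicates 4 (diamond), 5 (square) and 6 (triangle), with the number of genes in brackets and Col1a1 left out. The interstitial matrix (0.72, 0.80 and 0.81) lies to the right in all 3, and the nuclear long non-coding RNAs lie to the left in all 3, while the proximal tubule is to the right in replicates 5 and 6 and at -0.11 in replicate 4.

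Within code series 3, replicate 4 exceeded the range of replicates 1 to 3 by at least 1.5-fold in 694 genes (4.14%) and lay under it by that much in 1191 (7.11%). Of 39 interstitial matrix genes 27 were higher by this rule and 0 lower, and of 24 smooth muscle genes 11 were higher and 0 lower. Of 33 ribosomal protein genes 13 were higher, and of 12 nuclear RNAs 8 were lower and 2 higher. Of 27 proximal tubule genes 0 were higher and 1 (Slc22a8) was lower. The matrix, contractile, globin, ribosomal protein and nuclear RNA differences were thus seen within the code series in 1 library, itself chosen by Col1a1. In replicate 4 they were 2.11 for Hba-a1, 2.47 for Actg2 and -0.98 for Malat1. In replicates 5 and 6 they were 2.51, 2.60 and -2.06, with the low set shared by both comparisons.

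Pairs of libraries were also compared by the median absolute log2 difference over all genes. UUO replicates 5 and 6 were 0.17 apart, and replicates 4 and 5 were 0.19 apart. Replicate 4 was 0.26 from replicate 6 and 0.21 to 0.28 from replicates 1 to 3. Replicate 6 was 0.18 from UUO_Si replicate 6, but 0.34 to 0.42 from replicates 1 to 3. Over the matrix genes alone the order was different: replicates 4 and 5 were 0.17 apart and replicates 5 and 6 were 0.16 apart, whereas replicate 6 and UUO_Si replicate 6 were 0.30 apart. The libraries were chosen for high Col1a1, so that their nearness over matrix genes follows in part from the choice and is a description only.

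**Figure D4:**
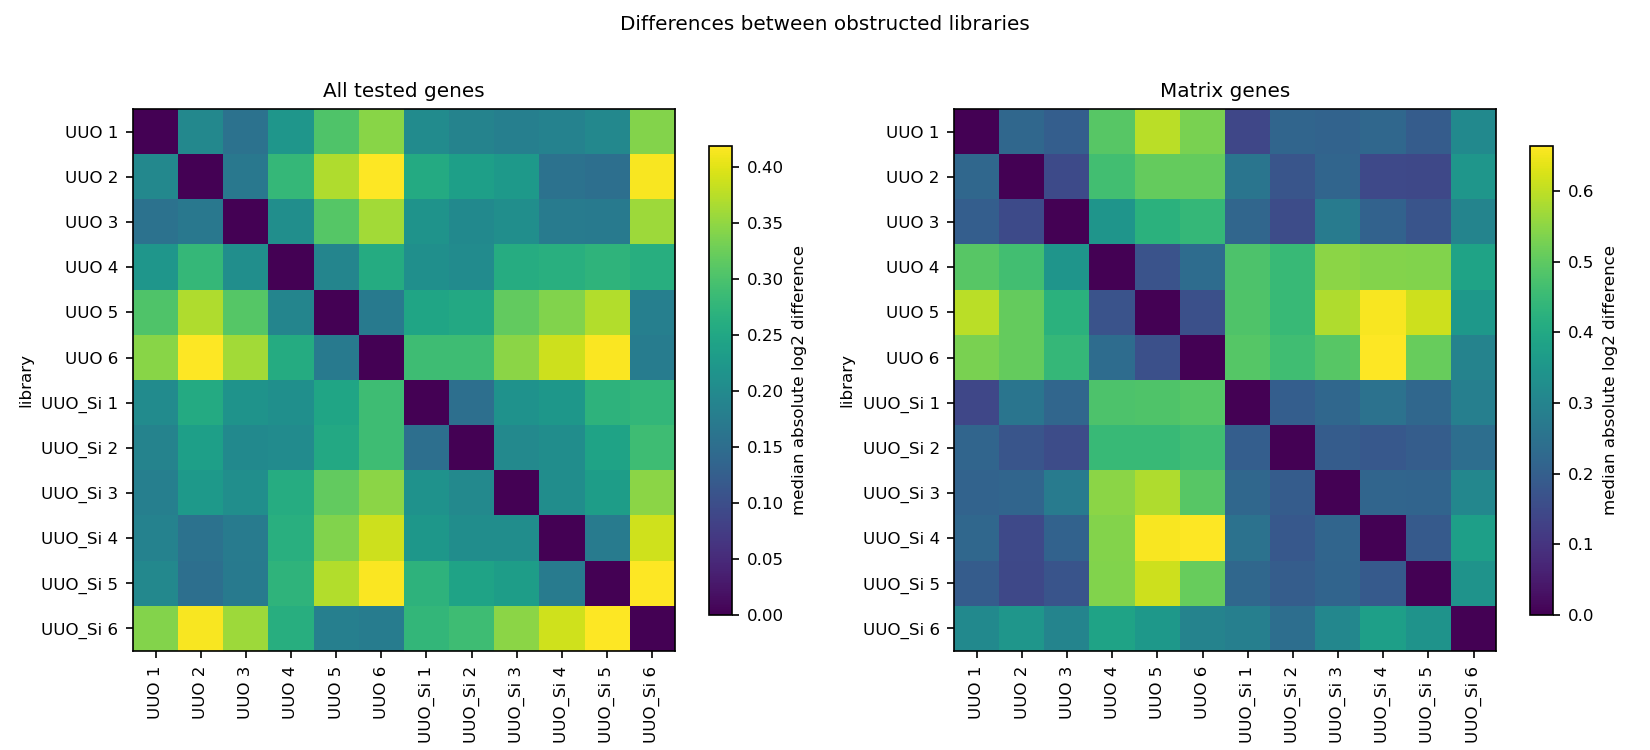
Median absolute log2 difference between each pair of the 12 obstructed libraries over all tested genes (left) and over the matrix genes (right), darker meaning more alike. On the left UUO replicates 5 and 6 and UUO_Si replicate 6 are dark with each other, and on the right UUO replicates 4, 5 and 6 are.

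UUO_Si replicate 6, of code series 7, offered a view of the same differences in a library that the Col1a1 rule did not use. Its comparison with the other 5 UUO_Si libraries was chosen after the data had been seen, rests on 1 library and has no test. It exceeded their range by at least 1.5-fold in 1764 genes (10.5%) and lay under it by that much in 1940 (11.6%). It shared the low nuclear RNAs, with Malat1 at 14810 CPM against 47210 to 76070 CPM, and the high ribosomal proteins (median 0.79), oxidative phosphorylation genes (0.61), proximal tubule genes (1.13) and adipocyte genes (4.14, Adipoq 208 counts against 0 to 16). Ucp1 of brown fat had 232 counts there and 0 to 8 in the other obstructed libraries. Hba-a1 was at 41.6 CPM against 10.5 to 21.2 CPM.

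In UUO_Si replicate 6 Col1a1 was at 1506 CPM, inside the range of the other UUO_Si libraries, and differed from them by 0.03, Col3a1 by 0.15, Actg2 by -0.10 and Cnn1 by -0.04. The fibrillar collagen median was 0.03 and that of smooth muscle -0.01, whereas 10 of 39 other matrix genes were higher, Cthrc1 (1.25), Thbs2 (1.23) and Col8a1 (1.17) among them. Cilp, at 32.9 CPM, was inside the range of the other 5, which reached 42.2 CPM. Of 9 fibrillar collagens Col11a1 was higher and Col11a2 and Col27a1 were lower by the same rule, and of 24 smooth muscle genes Myh11 (-0.67) and Synm (-0.77) were lower. Of 11 skeletal muscle genes 5 were higher and 3 lower. Krt5 was lower by 0.57 on the log2 scale. Of the 810 genes higher in the high UUO set by at least 1.5-fold, 462 were also higher in UUO_Si replicate 6, which is 57.0% of that list and 26.2% of the 1764. Of the 1274 lower genes 889 were shared, 69.8% of that list and 45.8% of the 1940. In opposite directions went 8 genes higher in the high set and 4 lower in it (Ascl4, Gad1os, Nlgn1 and Olfr543, named after their values were seen).

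**Figure D5:**
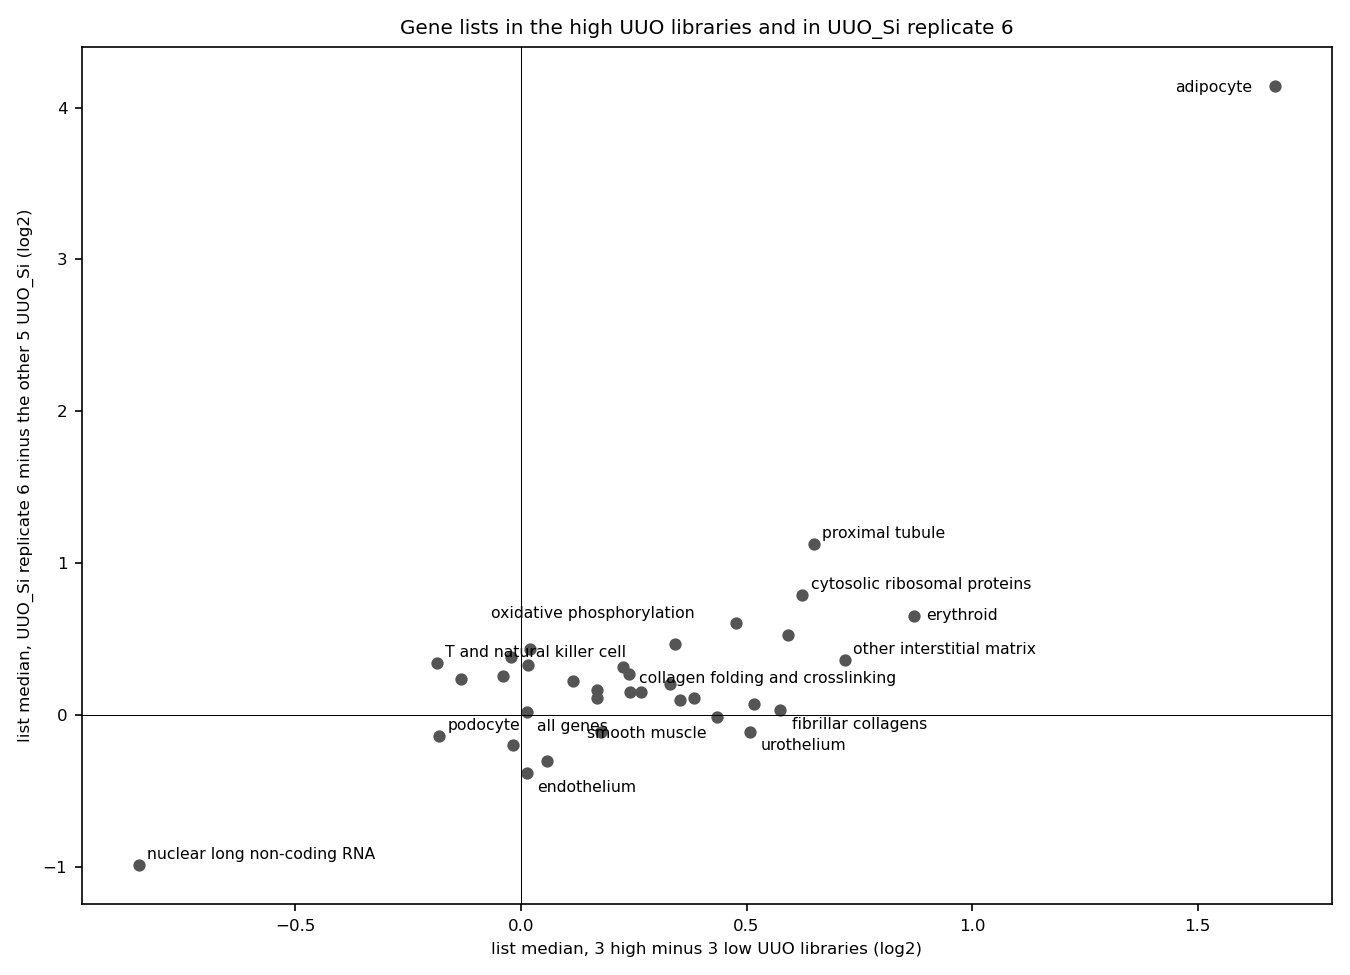
List medians of log2 differences, high minus low UUO libraries on the x axis and UUO_Si replicate 6 minus the other 5 UUO_Si libraries on the y axis, each point a list with at least 5 expressed genes or all genes. Adipocyte, proximal tubule, ribosomal protein and nuclear RNA lists lie away from 0 on both axes, while fibrillar collagens (0.57 and 0.03) and smooth muscle (0.43 and -0.01) lie away from 0 on the x axis only.

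The genes that obstruction changed were taken from UUO_Si against sham, 9 libraries that the Col1a1 rule did not use. With edgeR's quasi-likelihood test and Benjamini-Hochberg adjustment 4558 genes (27.2%) were higher and 4276 (25.5%) lower in UUO_Si. Without sham replicate 3 and UUO_Si replicate 6 the counts were 4647 and 4134. This contrast differs in diet as well as in operation. Among the 4558 raised genes the median difference between the high and low UUO sets was 0.11, and 30% were higher and 9.57% lower without overlap. Among the 819 raised at least 4-fold the median was 0.21. Among the 4276 lowered genes the median was -0.02, with 15.3% higher and 23.4% lower, -0.07 in replicate 4 and 0.01 in replicates 5 and 6. The 774 genes lowered at least 4-fold had a median of 0.38, made up of -0.11 in replicate 4 and 0.64 in replicates 5 and 6. In these medians the high set lay further in the direction of obstruction for the raised genes, and replicates 5 and 6 lay toward sham for the genes lowered most.

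Whether other genes move with Col1a1 was tested in the 6 UUO_Si libraries, where Col1a1 ran from 1173 to 1799 CPM. A slope is the log2 change per log2 unit of Col1a1. With edgeR's quasi-likelihood test and Benjamini-Hochberg adjustment over 16751 genes 0 genes had a positive and 0 a negative slope (0.0% each), with a smallest adjusted p of 0.0821 for Capn11, which had 10.4 CPM in UUO_Si replicate 4 and at most 0.25 CPM in the others. At an unadjusted p under 0.05 there were 278 positive (1.66%) and 118 negative (0.704%) slopes, limma-voom called 0 genes, and DESeq2 called 6 positive and 1 negative. Col1a2 had a slope of 0.90 and Col3a1 of 1.01, with unadjusted p of 0.0261 and 0.0275 by the same edgeR test and adjusted p of 1 each. Slopes of this size were not simulated, so the 0 called genes do not speak on slopes near 1. Among the interstitial matrix genes 27 of 39 slopes were positive, with a median of 0.34. At an unadjusted p under 0.05 stood 3 of them (Col6a1, Col6a2 and Col14a1). Smooth muscle genes had a median slope of -0.23 with 0 at that p, Acta2 a slope of -0.31, and erythroid, ribosomal protein and nuclear RNA genes also had 0 at that p.

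The slopes of smallest p among named genes were not passing ones either: Col6a5, a type VI collagen chain, the MHC class II chaperone gene H2-DMb2, the collagen receptor Lair1, Serpina3g, Crispld2 and the interferon-induced Gbp2, Gbp5, Gbp10, Irgm2 and Ubd. All were highest in UUO_Si replicate 3, the library with the most Col1a1, with Col6a5 at 69.8 CPM there and 1.57 to 6.75 CPM in the other 5. In the lists, 9 of 13 dendritic cell and MHC class II genes and 12 of 28 cell cycle genes had a positive slope at an unadjusted p under 0.05. Their median slopes were 1.46 and 1.22, and 1.48 and 0.69 without UUO_Si replicate 3. Without the 2 libraries farthest from the median Col1a1 (UUO_Si replicates 3 and 4) the cell cycle median was -1.13. In the UUO split the same lists had medians of -0.02 and 0.12.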

How the data were processed

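Total RNA of mouse kidney was prepared with the SMARTer Stranded Pico Input kit, per the labels' protocols. The authors deposited expected counts per gene, not normalized, for 24421 symbols. Per the submitters' processing notes, the build was mm10 and the tools TopHat2 2.1.1 and Cuffdiff 2.2.1. Which program counted, with which strand setting and annotation, is not given in the sources used here. That the values are expected counts was read from them: 79.0% to 83.0% of a library's values were whole. No gene of the mitochondrial genome was in the table, and 1462 genes had the same values as another gene.

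The counts were rounded, filtered with edgeR 4.0.16 (minimum count 10, all 15 libraries), scaled by TMM and turned into log2 CPM with a prior count of 2 (R 4.3.3). Groups came from the sample titles. Differences between the high and low UUO libraries are descriptions: 3 and 3 libraries do not overlap when all of one set exceed all of the other. Tests were edgeR's quasi-likelihood test (robust, two-sided, Benjamini-Hochberg over all genes, 0.05) for UUO_Si against sham in a fit of all 3 groups, and for the slope on Col1a1 within UUO_Si. Nothing in the labels ties samples to animals, so p-values measure the spread between these samples, which may be technical. The sets, the 37 lists (724 members, 711 in the table) and the 38 panel genes were chosen with earlier results of these data known. Named genes were drawn from the panel, the 10 largest differences each way (at least 5 CPM, established symbol), up to 4 members of each list with the largest difference, and the 10 smallest p of the slope. Not every gene that met these rules is named, and most of the 10 largest lower differences are not. Other members are named where they went against their list or showed a range, and these were chosen after their values were seen.

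Depth was 5.53 M to 15.4 M counts (M for mega) over the 15 libraries. Steps were tested on simulated data. Of 200 genes changed 2-fold, 69.5% were called between UUO_Si and sham in 16752 genes. Of slopes of 4, 75.0% were called in 16751 genes, and smaller slopes, such as those of Col1a2 and Col3a1, were not simulated. Of 200 genes set 2-fold apart between the 3 and 3 UUO libraries, 95.5% did not overlap in the set direction. In that simulation 1837 of all 16752 genes did not overlap. Alternatives were RLE, upper-quartile and total count scaling, other filters and prior counts, removal of Rn45s, haemoglobin genes and Malat1, DESeq2 1.42.0, limma-voom (limma 3.58.1), another gene for the split and the loss of each library. GENCODE M21 gave gene types and lengths, and RefSeq (GRCm38.p6) the promoters. Positions of the main genes on GRCm38 are chr11:94936224-94953042 for Col1a1, chr6:83512905-83536265 for Actg2, chr11:32283511-32284465 for Hba-a1, chr19:5795690-5802672 for Malat1, chr19:5824708-5845478 for Neat1, chr10:79890853-79892655 for Cfd and chr9:65265180-65280605 for Cilp.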

Additional observations from a re-analysis of the deposited data

Results flagged for a closer look

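A value is given here where 1 of the 6 libraries of a group lay far from the other 5, by a rule that chance meets in about 1 of 20 groups. No UUO library met it for the 38 panel genes or the library measures, and 12 values in UUO_Si did. UUO_Si replicate 6 stood apart in genes detected (21949, others 18520 to 18682), in olfactory and vomeronasal receptor genes detected (985, others 92 to 128), in globin share (148 ppm of counts, others 38.6 to 78.3), in Hba-a1 (41.6 CPM) and Hbb-bs (19.8 CPM), and in the macrophage gene Adgre1 (95.0 CPM, others 44.2 to 59.5). UUO_Si replicate 3 stood apart in Rn45s (44400 CPM, 4.45% of counts), Mki67 (243 CPM, others 136 to 170), Fos (5.54 CPM, others 10.3 to 13.0) and Upk3a (0.566 CPM, others 3.33 to 4.90). UUO_Si replicate 1 stood apart in Slc12a3 (305.4 CPM, others 181 to 228). The causes were not tested.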

How the results depend on the processing

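RLE, upper-quartile or total count scaling moved the median of all genes between 0.0058 and 0.0499, and no scaling changed the direction of a list median named above other than those of basement membrane (-0.02 to 0.02) and MHC class II genes (-0.03 to 0.02). Splitting by Col3a1 or Fn1 gave the same sets. Without a filter the genes higher without overlap were 7412, and 2829 with 1.5-fold. Leaving out each UUO library in turn gave 3705 to 5044 higher and 3731 to 4910 lower genes, and with 1.5-fold 753 to 1814 higher and 1195 to 1970 lower. The highest of these counts came without replicate 4, that is with replicates 5 and 6 against 1 to 3 (5044, 1814 and 1970), and fewer libraries overlap less by construction. Replicate 4 against replicates 1 to 3 gave 5288 higher and 5241 lower, and UUO_Si replicate 6 against the other 5 gave 5124 higher, with 1.5-fold 1764 higher and 1940 lower. In that last comparison, of the panel genes apart in the high and low sets, Actg2 (-0.10), Cnn1 (-0.040), Krt5 (-0.57) and Alas2 (-0.35) had the opposite sign, as had Vwf (-0.42), Stmn2 (-0.56), Fst (-0.36), Lama4 (-0.18), Inhba (-0.16), Cdh5 (-0.01), Foxp3 (0.21) and Csf3r (0.06) of the other named genes, and Myh11 (-0.67), Lox (-0.43) and Tnc (-0.42) among those that overlapped. The cause was not tested. The slope on Col1a1 gave 1 positive and 1 negative gene without a filter, 6 and 1 with DESeq2, 3 positive with Col3a1 as the covariate, and 0 to 1 in each direction when a UUO_Si library was left out (1 positive without replicate 4, 1 negative without replicate 6). UUO_Si against sham gave 3988 to 4678 higher and 3631 to 4283 lower genes when libraries were left out. With a replicate block it gave 4301 higher and 3967 lower genes, and same-numbered samples did not deviate together (correlations 0.159, 0.115 and -0.041). Levels near 1 count, as in Adipoq or Miat of the low set, are limited by depth.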
